A study of Mus musculus with 15 samples.

Results

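The genes described here are 10 markers of cortical interneuron classes, namely Pvalb, Sst, Vip, Npy, Lamp5, Reln, Cck, Lhx6, Adarb2 and Calb1. They were chosen by symbol, and all 10 were found among the 56748 identifiers of the count table and among the 22998 genes that were tested. Cortex RNA was sequenced from wild-type C57BL/6J mice that had 1 session of intermittent theta-burst stimulation (iTBS), continuous theta-burst stimulation (cTBS) or sham stimulation, all given as repetitive transcranial magnetic stimulation, a method that drives brain tissue with magnetic pulses from outside the skull. Each group had 5 animals, 1 library each, and tissue was taken 3 hours after the session. The labels name the dissected region both as sensorimotor and as somatosensory cortex, so it is called cortex here. The comparison asks whether the RNA of each interneuron class differed between a stimulation protocol and sham, or between the protocols.

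Cortical interneurons release the inhibitory transmitter GABA and fall into classes that differ in origin, shape and target. Cells of the parvalbumin (Pvalb) and somatostatin (Sst) classes arise in the medial ganglionic eminence of the embryo and depend on the transcription factor Lhx6. Cells of the Vip and Lamp5 classes arise largely in the caudal ganglionic eminence and are marked in the cortex by Adarb2, a relative of the RNA-editing enzymes. Parvalbumin cells contact the soma of pyramidal neurons, somatostatin cells contact their dendrites, and Vip cells mainly inhibit other interneurons. Several of these genes are not limited to interneurons: Cck, Lamp5 and Calb1 are also made by groups of excitatory neurons, and Calb1 by projection neurons of the striatum.

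Promoter windows are printed for 5 members, because the levels of Sst, Vip, Npy and Cck moved together across libraries and that of Adarb2 moved against them. Lamp5 also moved with these peptide genes (r = 0.97 with Npy), and its windows are not printed. Each window is the 250 bases before a RefSeq start in GRCm38.p6, read 5′ to 3′ on the strand of the gene. Capitals mark TGACGTCA, the cAMP response element through which neuronal activity can act on peptide genes, its core TGACG, which reads CGTCA on the other strand, and the letters TATAAA, to which the general transcription machinery can bind. The windows lie at chr16:23890845-23891094 on the minus strand (Sst), chr10:5638968-5639217 on the plus strand (Vip), chr6:49822460-49822709 on the plus strand (Npy), chr9:121495695-121495944 on the minus strand (Cck) and chr13:8202616-8202865 on the plus strand (Adarb2).
Sst: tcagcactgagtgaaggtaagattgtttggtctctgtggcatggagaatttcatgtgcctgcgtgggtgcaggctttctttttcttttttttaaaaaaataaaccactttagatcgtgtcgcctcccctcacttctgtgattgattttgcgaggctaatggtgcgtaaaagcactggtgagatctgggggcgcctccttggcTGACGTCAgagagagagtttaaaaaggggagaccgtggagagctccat
Vip: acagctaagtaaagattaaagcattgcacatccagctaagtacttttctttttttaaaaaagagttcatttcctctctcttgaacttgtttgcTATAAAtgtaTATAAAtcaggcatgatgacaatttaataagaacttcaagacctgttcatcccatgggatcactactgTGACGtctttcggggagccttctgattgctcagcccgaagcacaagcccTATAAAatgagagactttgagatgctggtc
Npy: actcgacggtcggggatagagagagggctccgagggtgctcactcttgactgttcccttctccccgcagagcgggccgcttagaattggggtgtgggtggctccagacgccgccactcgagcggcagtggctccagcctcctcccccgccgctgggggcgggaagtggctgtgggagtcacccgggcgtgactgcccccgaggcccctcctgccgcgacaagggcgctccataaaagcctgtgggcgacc
Cck: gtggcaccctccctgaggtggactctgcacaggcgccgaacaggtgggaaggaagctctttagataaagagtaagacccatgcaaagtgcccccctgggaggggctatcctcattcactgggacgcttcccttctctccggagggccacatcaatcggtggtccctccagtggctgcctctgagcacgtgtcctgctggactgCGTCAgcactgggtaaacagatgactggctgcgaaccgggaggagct
Adarb2: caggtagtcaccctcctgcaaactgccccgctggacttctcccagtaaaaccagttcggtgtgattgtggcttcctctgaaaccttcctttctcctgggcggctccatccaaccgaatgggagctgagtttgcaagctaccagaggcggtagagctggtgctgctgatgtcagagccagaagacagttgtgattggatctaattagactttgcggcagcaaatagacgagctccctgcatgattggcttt

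The Sst window held TGACGTCA with its first base 48 bases before the start, and 1.55% of the 32851 windows in the RefSeq table held those letters on either strand. TGACG lies within TGACGTCA on both strands, so the Sst window also counts among the 17.8% of windows with TGACG. The Vip window held TGACG 79 bases before the start, and the Cck window held it on the other strand at 47 bases. TATAAA occurred 3 times in the Vip window, the nearest 30 bases before the start, and 12.4% of all windows held it. The windows of Npy and Adarb2 held none of the capitalised letters, but each held a GC box (GGGCGG, in 32.7% of windows). An E-box (CACGTG, in 6.02% of windows) occurred in the windows of Cck and Reln. The windows of Lamp5 and Pvalb held none of the letters named here. Windows were found for 9 of the 10 members, 13 in all, and these matches describe the letters alone.

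The 15 libraries held between 15385070 and 47807723 counts and detected 32299 to 35449 genes. Levels are given as CPM, that is counts scaled to a common library size, with edgeR's TMM factors applied. The libraries differed in RNA that is not specific to interneurons. The nuclear RNA Malat1 ranged between 1037 and 9617 CPM and Ttr, the main transcript of the choroid plexus, between 0.759 and 248.6 CPM. A list of 10 RNAs retained in the nucleus averaged 7.26 to 8.40 log2 CPM in iTBS libraries, 6.18 to 7.55 in cTBS libraries and 6.67 to 8.53 in sham libraries. All 10 of them had an unadjusted p under 0.05 and a lower level for cTBS against sham, where 17.6% of all genes did. A list of 10 striatal neuron genes averaged 4.78 to 6.48 log2 CPM in iTBS libraries, 4.72 to 6.44 in cTBS libraries and 4.12 to 6.16 in sham libraries. All 10 had fold changes above 1 in both comparisons with sham, where 49.5% of all genes did for iTBS and 46.5% for cTBS. At an unadjusted p under 0.05 by edgeR, 0 of them were higher for iTBS and 2 for cTBS, where 0.952% and 6.8% of all genes were. The genes of both lists had counts above 0 in every library. As a check of the tissue, 9 markers of cortical excitatory neurons, Slc17a7 among them, averaged 7.05 to 7.32 log2 CPM in iTBS libraries, 7.05 to 7.28 in cTBS libraries and 6.72 to 7.43 in sham libraries. In bulk tissue, fewer cells of a class and less RNA per cell cannot be told apart.

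None of the 10 markers passed an adjusted p of 0.05 in any comparison by edgeR's quasi-likelihood test, and neither did any other gene (percent called 0 in each comparison). At an unadjusted p under 0.05 the markers counted 0 for iTBS against sham, where 1.93% of all genes passed, 1 for cTBS against sham, where 24.4% passed, and 1 for iTBS against cTBS, where 30.6% passed. That marker was Calb1 both times, higher in cTBS than in sham (6.8% of all genes) and lower in iTBS than in cTBS (10.6%, while 20% were higher). In DESeq2 the genes past the adjusted threshold numbered 0, 132 and 2618 in those comparisons, and limma on the deposited values gave 0 in each. For iTBS against sham, 2 markers were above and 8 below a fold change of 1, with a median log2 fold change of -0.021 against -0.001 over all genes, of which 49.5% were above and 50.5% below 1. For cTBS against sham, 8 were above and 2 below, with a median of 0.060 against -0.023, and 46.5% of all genes were above and 53.5% below 1. For iTBS against cTBS, 4 were above and 6 below, with a median of -0.048 against 0.027, and 53.9% of all genes were above and 46.1% below 1. No marker had groups without overlap in any comparison. Of all genes, 0.243% were higher and 0.209% lower without overlap for iTBS against sham, 0.626% and 0.713% in cTBS relative to sham, and 2.22% and 1.7% between iTBS and cTBS. The comparisons share libraries, so their counts are not independent.

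**Figure D1:**
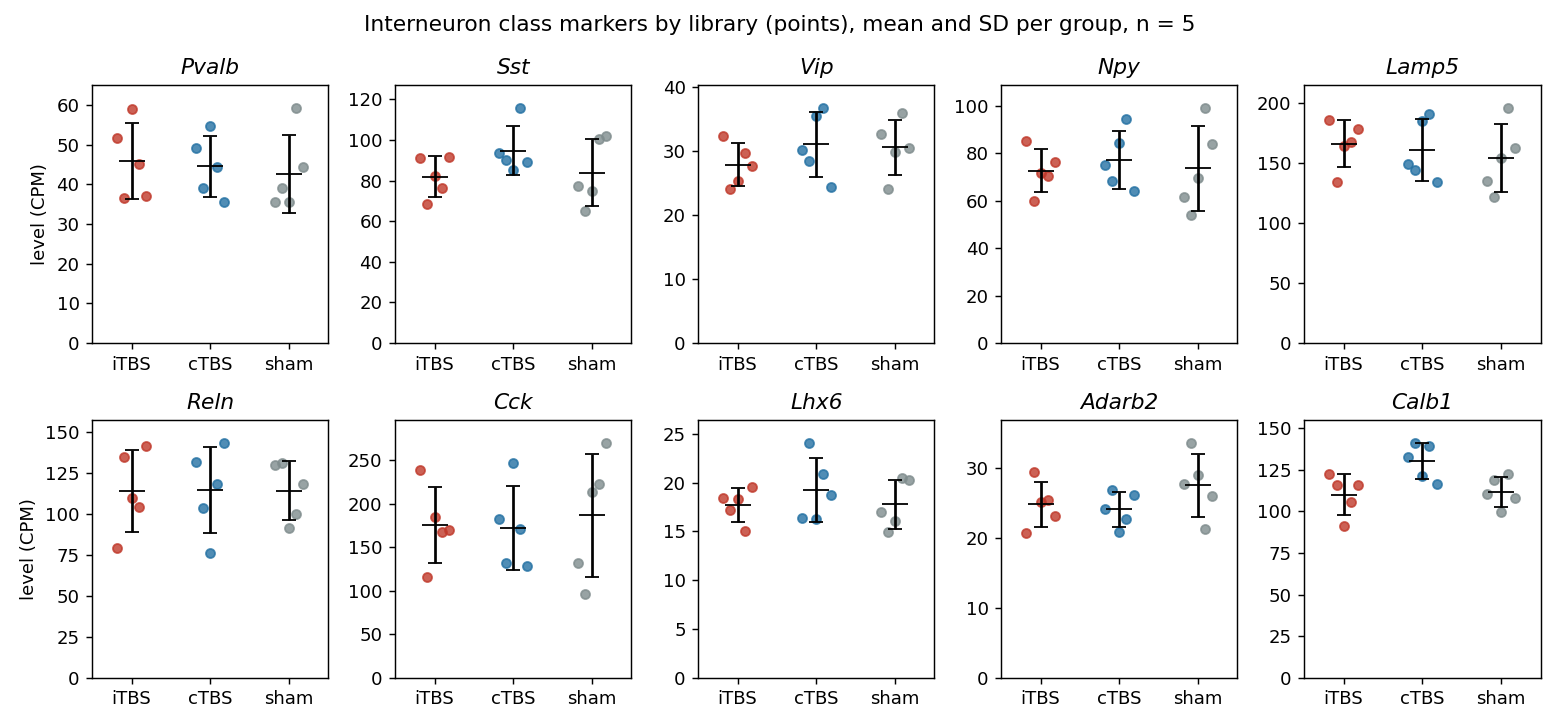
Level of each marker in CPM (vertical axis, from 0) in every library, by group (iTBS, cTBS, sham), with the group mean and SD in black (n = 5). The 3 groups overlap for every marker, and Calb1 is the marker whose cTBS libraries sit highest relative to the others, at 116.8 to 141.1 CPM.

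Calb1 encodes calbindin, a protein that binds calcium in many somatostatin cells and in other neurons. Calb1 had 122, 116, 91.02, 106 and 116 CPM in iTBS cortex, 133, 141, 121, 139 and 117 CPM in cTBS cortex, and 110.4, 119, 99.5, 122 and 108 CPM in sham cortex. In 3 of the 5 cTBS libraries the level was above that of every iTBS and sham library, while the remaining cTBS libraries lay within the other groups' ranges. The means were 110.2 ± 12.3 CPM in iTBS cortex, 130.3 ± 10.8 CPM in cTBS cortex and 112 ± 9.06 CPM in sham cortex (SD, n = 5 each). The log2 fold change for cTBS against sham was 0.22 ± 0.082 (SE, 95% interval 0.045 to 0.39, unadjusted p 0.0168, edgeR adjusted p 0.148). For iTBS against cTBS it was -0.24 ± 0.082 (95% interval -0.41 to -0.066, unadjusted p 0.00993, edgeR adjusted p 0.0892). For iTBS against sham it was -0.021 ± 0.083, smaller than its error. Calb1 had the smallest spread of the 10 markers within groups, with an SD of 0.138 log2 units, below the median of 0.166 over genes with a mean of at least 1 CPM.

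Whether Calb1 passed depended on the libraries and the tool. Of 27 alternatives, 5 put iTBS against cTBS past the threshold, and 1 did so for cTBS against sham. For iTBS against cTBS the log2 fold change was -0.33 without iTBS 1 (adjusted p 0.0318), -0.28 without cTBS 5 (0.0429) and -0.27 without sham 4 (0.0428). Without sham 4 it was 0.30 for cTBS against sham (adjusted p 0.0292), and all genes past the threshold then numbered 5726. DESeq2 gave -0.27 with an adjusted p of 0.0432 for iTBS against cTBS, and the excitatory neuron level as a covariate, chosen after the values were seen, gave -0.24 (adjusted p 0.0448). With the level of nuclear RNA as a covariate, edgeR gave 0.11 for cTBS against sham (unadjusted p 0.195) and -0.12 for iTBS against cTBS (unadjusted p 0.164). Library size moved with the groups too, at 15385070 to 37929975 counts in iTBS libraries, 35545632 to 43770223 in cTBS libraries and 18484169 to 47807723 in sham libraries. Within groups, Calb1 was higher in larger libraries (r = 0.82, permutation p 0.00063, adjusted over 80 relations 0.0084, and r = 0.60 without the 2 most extreme libraries; Spearman's rho 0.69, permutation p 0.0043, adjusted 0.036). With the striatal level as a covariate the values were 0.17 (unadjusted p 0.0828) and -0.21 (unadjusted p 0.0203). The part of library size in the Calb1 difference was not tested.

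**Figure D2:**
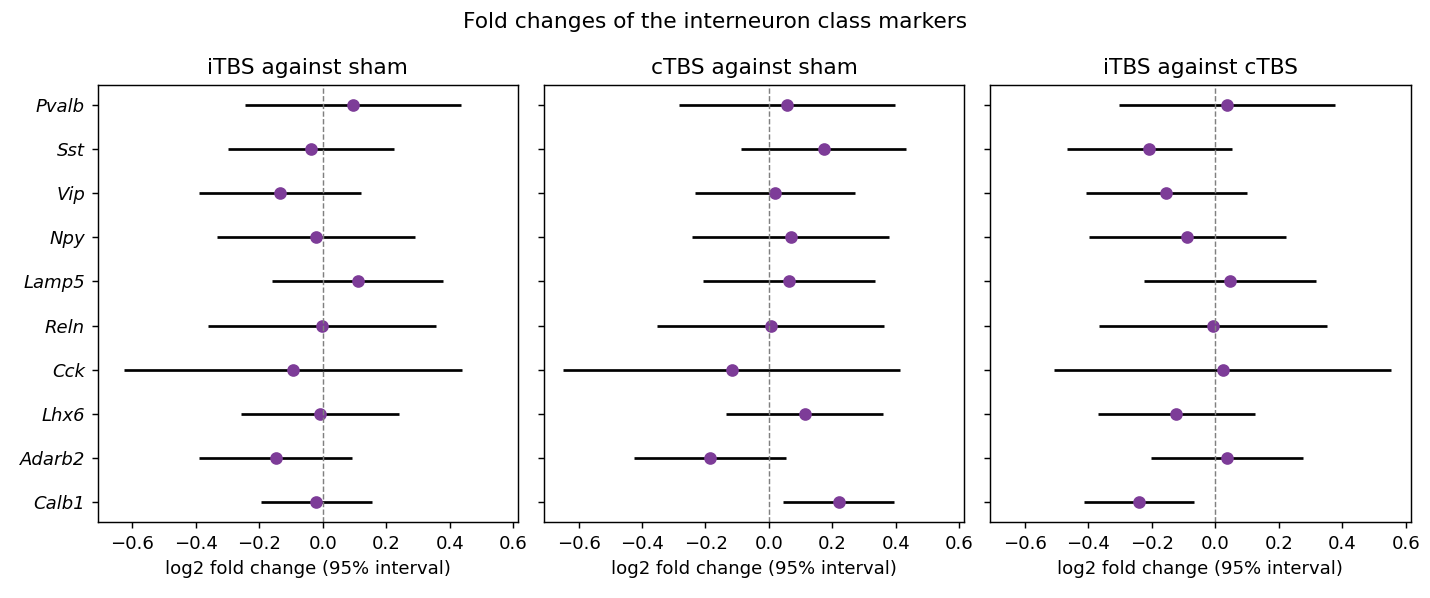
Log2 fold change of each marker (horizontal axis, point) with its 95% interval (line) in the 3 comparisons, from edgeR. Only the intervals of Calb1 for cTBS against sham (0.045 to 0.39) and for iTBS against cTBS (-0.41 to -0.066) leave out 0, and Cck has the widest.

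The markers of the medial ganglionic eminence lineage gave the following levels. Sst encodes somatostatin, the peptide of dendrite-targeting interneurons. Sst had 90.9, 68.3, 82.4, 76.5 and 91.9 CPM in iTBS cortex, 93.8, 90.0, 85.1, 116 and 89.04 CPM in cTBS cortex, and 77.2, 65.3, 75.1, 100.5 and 102 CPM in sham cortex. The highest library was cTBS 4 and the lowest sham 2, and each cTBS library lay within the range spanned by the other groups except that one. The log2 fold change for cTBS against sham was 0.17 ± 0.12 (95% interval -0.087 to 0.43, edgeR adjusted p 0.382), and for iTBS against cTBS it was -0.21 ± 0.12 (95% interval -0.47 to 0.052, adjusted p 0.253). For iTBS against sham it was -0.036 ± 0.12. With that excitatory covariate Sst passed for iTBS against cTBS at -0.28 (edgeR adjusted p 0.0215). With nuclear RNA as a covariate the same difference was 0.047 (unadjusted p 0.636).

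Pvalb encodes parvalbumin, the calcium buffer of fast-spiking interneurons. Pvalb had 51.7, 36.7, 58.95, 45.1 and 36.96 CPM in iTBS cortex, 49.1, 39.1, 54.8, 44.3 and 35.6 CPM in cTBS cortex, and 35.6, 39.03, 35.4, 59.2 and 44.2 CPM in sham cortex. Every group had libraries near both ends of the range. The log2 fold change was 0.095 ± 0.16 for iTBS against sham, 0.057 ± 0.16 in cTBS relative to sham and 0.038 ± 0.16 between iTBS and cTBS, each smaller than its error. Lhx6 encodes the transcription factor shared by both classes. Lhx6 had 18.4, 17.2, 18.3, 15.02 and 19.6 CPM in iTBS cortex, 16.4, 24.1, 16.3, 20.9 and 18.7 CPM in cTBS cortex, and 17.02, 14.9, 16.1, 20.5 and 20.3 CPM in sham cortex. The highest library was cTBS 2 and the lowest sham 2. For cTBS against sham the log2 fold change of Lhx6 was 0.11 ± 0.12 (95% interval -0.13 to 0.36), and the difference for iTBS against sham was -0.009 ± 0.12.

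The markers of the caudal ganglionic eminence lineage were Vip, Adarb2 and Lamp5. Vip had 32.4, 24.02, 25.4, 29.7 and 27.7 CPM in iTBS cortex, 30.2, 28.5, 35.5, 36.7 and 24.4 CPM in cTBS cortex, and 32.6, 24.1, 29.8, 35.99 and 30.4 CPM in sham cortex. Vip encodes the vasoactive intestinal peptide, and its groups overlapped over most of their ranges. Vip had a log2 fold change of -0.14 ± 0.12 for iTBS against sham (95% interval -0.39 to 0.12), 0.019 ± 0.12 in cTBS relative to sham and -0.15 ± 0.12 for iTBS against cTBS. Adarb2 had 20.7, 29.5, 25.2, 25.4 and 23.1 CPM in iTBS cortex, 24.2, 26.9, 20.8, 22.6 and 26.1 CPM in cTBS cortex, and 27.7, 33.5, 28.98, 21.3 and 25.9 CPM in sham cortex. The highest Adarb2 level was in sham 2, and the sham group had the highest mean, at 24.8 ± 3.24 CPM in iTBS cortex, 24.1 ± 2.5 CPM in cTBS cortex and 27.5 ± 4.46 CPM in sham cortex (SD, n = 5 each). Adarb2 had a log2 fold change of -0.15 ± 0.11 for iTBS against sham (95% interval -0.39 to 0.092, edgeR adjusted p 1) and -0.18 ± 0.11 for cTBS against sham (95% interval -0.42 to 0.053, adjusted p 0.307). Lamp5 had 186, 134, 164, 168 and 179 CPM in iTBS cortex, 149.6, 144, 185, 191 and 134 CPM in cTBS cortex, and 135, 122, 154, 196 and 163 CPM in sham cortex. Lamp5, a lysosome-associated membrane protein of neurogliaform cells, had overlapping groups, with a log2 fold change of 0.11 ± 0.13 for iTBS against sham and 0.062 ± 0.13 for cTBS against sham.

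Npy, Cck and Reln are secreted products found in more than 1 class. Npy encodes neuropeptide Y, made by neurogliaform cells and by part of the somatostatin class. Npy had 85.1, 59.7, 71.9, 70.5 and 76.4 CPM in iTBS cortex, 75.3, 68.5, 84.2, 94.7 and 64.05 CPM in cTBS cortex, and 61.7, 54.0, 69.8, 99.01 and 83.9 CPM in sham cortex. Its lowest and highest libraries were both in the sham group. Npy had a log2 fold change of -0.021 ± 0.15 for iTBS against sham, 0.068 ± 0.15 in cTBS relative to sham and -0.089 ± 0.15 for iTBS against cTBS. Cck encodes cholecystokinin, a peptide of basket cells and of excitatory neurons. Cck had 238, 116, 184, 167 and 169 CPM in iTBS cortex, 182, 132, 247, 171 and 128 CPM in cTBS cortex, and 132, 96.2, 213, 222 and 269 CPM in sham cortex. The sham group alone spanned the range of all 15 libraries, whose highest level was 2.80 times the lowest. Cck had the widest interval of the markers, -0.63 to 0.44 for iTBS against sham, around a log2 fold change of -0.094 ± 0.25. For cTBS against sham it was -0.12 ± 0.25. Reln encodes reelin, an extracellular glycoprotein that binds lipoprotein receptors on neurons. Reln had 79.4, 135, 109.7, 104 and 141 CPM in iTBS cortex, 132, 103, 76.1, 118 and 143 CPM in cTBS cortex, and 129.9, 131, 91.1, 99.9 and 118 CPM in sham cortex. Each group held both low and high libraries, and the log2 fold changes were -0.002 ± 0.17 for iTBS against sham, 0.005 ± 0.17 in cTBS relative to sham and -0.007 ± 0.17 for iTBS against cTBS. A predicted gene on the opposite strand, Gm10475, overlaps 2.10% of the Reln exon bases, and Gm27953 on the same strand overlaps 2.81% of those of Lhx6.

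Ratios within a library do not depend on its scaling. Pvalb counts per Sst count averaged 0.563 ± 0.112 in iTBS libraries, 0.477 ± 0.108 in cTBS libraries and 0.511 ± 0.0765 in sham libraries (SD, n = 5 each). The ratio ranged between 0.402 and 0.715 in iTBS libraries, 0.383 and 0.643 in cTBS libraries, and 0.435 and 0.598 in sham libraries, so the groups overlapped. Lhx6 counts per Adarb2 count, a ratio of the lineages, averaged 0.729 ± 0.142 in iTBS libraries, 0.799 ± 0.107 in cTBS libraries and 0.672 ± 0.203 in sham libraries. The sham libraries held both the lowest value (0.445, sham 2) and the highest (0.963, sham 4). Set against the summed counts of Gad1, Gad2 and Slc32a1, Calb1 averaged 0.191 ± 0.0212 in iTBS libraries, 0.189 ± 0.0232 in cTBS libraries and 0.198 ± 0.00882 in sham libraries. On this scale the Calb1 means differed by less than the SD of the iTBS and the cTBS libraries. Adarb2 averaged 0.0430 ± 0.00677 in iTBS libraries, 0.0348 ± 0.00322 in cTBS libraries and 0.0490 ± 0.00917 in sham libraries on that scale, with overlapping ranges. Gad1, Gad2 and Slc32a1 themselves had log2 fold changes of 0.25, 0.36 and 0.41 for cTBS against sham, none past the adjusted threshold. Each of the markers had its lowest mean on that scale in cTBS libraries. The part of Gad1, Gad2 and Slc32a1 in these ratios was not tested.

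**Figure D3:**
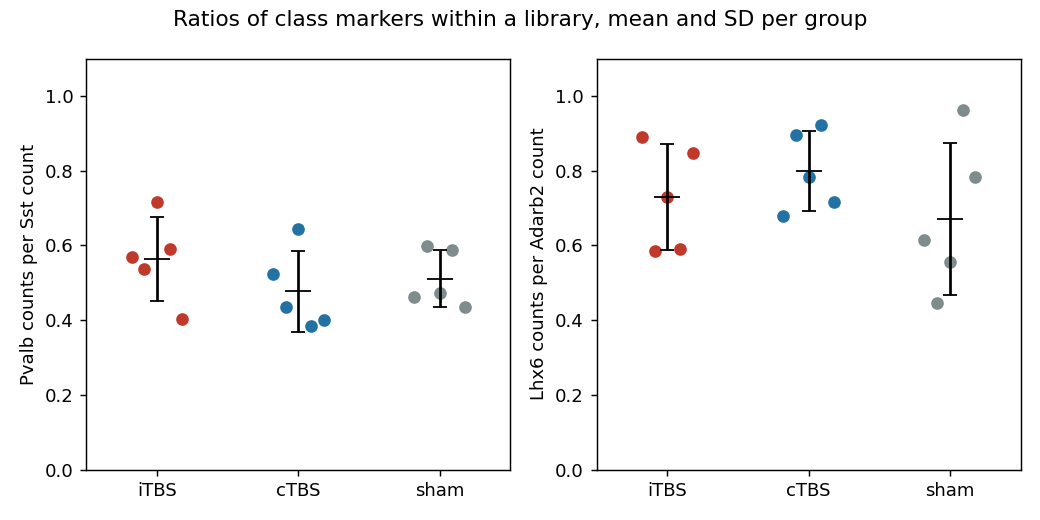
Counts of Pvalb per Sst count (left) and of Lhx6 per Adarb2 count (right) in every library by group, with mean and SD (n = 5). The groups overlap in both ratios, and the sham libraries span 0.445 to 0.963 for Lhx6 per Adarb2.

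Genes shared by all GABAergic neurons were described beside the class markers. Slc32a1 encodes the transporter that loads GABA into vesicles. Slc32a1 had 55.9, 62.7, 52.2, 45.6 and 62.6 CPM in iTBS cortex, 76.3, 82.8, 54.5, 63.8 and 70.02 CPM in cTBS cortex, and 54.8, 56.8, 41.9, 58.6 and 48.4 CPM in sham cortex. Its level was highest in cTBS 2 and cTBS 1, and the groups overlapped. Slc32a1 had a log2 fold change of 0.41 ± 0.12 for cTBS against sham (unadjusted p 0.00278, edgeR adjusted p 0.144) and -0.32 ± 0.12 for iTBS against cTBS (adjusted p 0.1). Gad1 and Gad2, the enzymes that make GABA, had 0.25 ± 0.091 and 0.36 ± 0.15 for cTBS against sham (edgeR adjusted p 0.145 and 0.179). Of the 11 genes on this list, 0 passed the adjusted threshold, 4 had an unadjusted p under 0.05 and a higher level for cTBS against sham, where 6.8% of all genes did, and the list median was 0.25. Striatal projection neurons also use GABA and these genes, and the striatal list was higher in cTBS than in sham libraries at its median of 0.67. The part of striatal RNA in these values was not tested.

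No gene named from the lineage and class lists passed the adjusted threshold in any comparison by edgeR. Of 4 medial lineage genes (Sox6, Satb1, Maf and Nkx2-1), 3 were above a fold change of 1 and 1 below for iTBS against sham (median 0.041), and for cTBS 2 were above and 2 below (median 0), with 0 at an unadjusted p under 0.05 in either. Of the 6 caudal lineage genes (Prox1, Nr2f2, Sp8, Nr2e1, Htr3a and Npas1), 2 were above and 4 below for iTBS against sham (median -0.072), and 6 were above for cTBS (median 0.12), where 46.5% of all genes were above 1, with 0 at an unadjusted p under 0.05 in either. The parvalbumin class list of 11 genes had 5 above and 6 below in both comparisons with sham, with medians of -0.013 for iTBS and -0.050 for cTBS. Ppargc1a, a regulator of mitochondrial genes that is enriched in these cells, had a log2 fold change of 0.15 ± 0.052 for cTBS against sham (edgeR adjusted p 0.144). It and Tac1 were the genes of that list at an unadjusted p under 0.05 there, both higher, where 6.8% of all genes were. In either direction, 24.4% of all genes passed. For iTBS against sham, 1 gene of that list, with a mean under 1 CPM, was lower at that level by edgeR, where 0.974% of all genes were.

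On the somatostatin class list, 8 of 9 genes were tested, with 2 above and 6 below for iTBS against sham (median -0.092) and 6 above and 2 below for cTBS (median 0.12). By edgeR, an unadjusted p under 0.05 was found for 0 of its genes for iTBS, where 1.93% of all genes passed. For cTBS it was found for 1, Chodl, which was higher, where 6.8% of all genes were. Chodl was at a low level, with a mean of 0.65 CPM. Grin3a, a subunit of NMDA receptors, had a log2 fold change of 0.11 ± 0.099 in cTBS relative to sham and -0.20 ± 0.099 for iTBS against cTBS. The Vip class list of 7 genes had 4 above and 3 below for iTBS against sham (median 0.020), and 3 above and 4 below for cTBS (median -0.088). For iTBS against sham, 2 of its genes, Calb2 and Tac2, were lower at an unadjusted p under 0.05, where 0.974% of all genes were. On the list of 11 Lamp5 and Sncg class genes, 5 were above and 6 below for iTBS against sham (median -0.036). In cTBS relative to sham, 10 were above and 1 below (median 0.17, against -0.023 over all genes), where 46.5% of all genes were above 1. For iTBS against sham, 1 gene of that list, with a mean under 1 CPM, was lower at an unadjusted p under 0.05 by edgeR, where 0.974% of all genes were. For cTBS, 1 of those 11 genes, Id2, was higher at an unadjusted p under 0.05, where 6.8% of all genes were. For iTBS against cTBS, 1 gene of that list was above and 10 below (median -0.215), where 46.1% of all genes were below 1. Of them, 3 were lower at an unadjusted p under 0.05 (Ndnf, Krt73 and Sncg), where 10.6% of all genes were. Krt73 and Sncg were at low levels, with means of 0.78 and 0.81 CPM. Ndnf, a secreted factor of neurogliaform cells, had a log2 fold change of 0.24 ± 0.14 in cTBS relative to sham and -0.35 ± 0.14 for iTBS against cTBS (edgeR adjusted p 0.126).

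Some lists of other cell types were also above a fold change of 1 in every gene for cTBS against sham, where 46.5% of all genes were. These were 6 of 6 oligodendrocyte genes (median 0.21), 5 of 5 astrocyte genes (0.12), 5 of 5 microglia genes (0.16) and 5 of 5 dentate gyrus genes (0.65). Other lists were not, among them 4 of 9 excitatory neuron genes (-0.008), 2 of 4 endothelial genes (-0.072), 1 of 5 choroid plexus genes (-0.467) and 0 of 6 thalamic genes (-0.21). The oligodendrocyte list averaged 7.43 to 7.98 log2 CPM in iTBS libraries, 7.77 to 8.33 in cTBS libraries and 7.64 to 8.16 in sham libraries. The astrocyte list averaged 6.57 to 7.04 in iTBS libraries, 6.86 to 7.14 in cTBS libraries and 6.74 to 6.99 in sham libraries. The microglia list averaged 4.70 to 5.00 in iTBS libraries, 4.88 to 5.11 in cTBS libraries and 4.71 to 4.97 in sham libraries. The ranges of the groups overlapped on these 3 lists. The dentate gyrus list averaged -0.01 to 0.60 in iTBS libraries, 0.05 to 1.80 in cTBS libraries and 0.19 to 0.43 in sham libraries. Its highest level was in cTBS 5, while cTBS 1, 2, 3 and 4 had 0.047, 0.22, 0.462 and 0.737. Tdo2 and Dsp of that list were at low levels, with means of 0.64 and 0.42 CPM. No gene of these 4 glial and dentate gyrus lists was at 0 in any library, and the part of these cell types in the values of the interneuron lists was not tested.

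The receptors for the markers' peptides and for reelin were a list of 13 genes. Npy1r, a receptor for neuropeptide Y, had the smallest p of this list for iTBS against sham. Npy1r had 37.4, 32.2, 30.6, 32.96 and 33.1 CPM in iTBS cortex, 30.1, 30.8, 35.9, 32.5 and 27.2 CPM in cTBS cortex, and 28.3, 24.5, 26.5, 31.8 and 28.1 CPM in sham cortex. Npy1r had a log2 fold change of 0.26 ± 0.082 for iTBS against sham (unadjusted p 0.00622, edgeR adjusted p 1), and 1 library of each group lay within the range of the other. Lrp8, a receptor for reelin, had the smallest p in cTBS relative to sham and for iTBS against cTBS. Lrp8 had 101, 87.3, 99.8, 115 and 107 CPM in iTBS cortex, 82.3, 86.8, 85.3, 85.7 and 91.1 CPM in cTBS cortex, and 101, 90.6, 103, 103 and 108 CPM in sham cortex. The cTBS libraries lay at 82.3 to 91.1 CPM, and the lowest library of each other group fell within that range. Lrp8 had -0.23 ± 0.068 for cTBS against sham (edgeR adjusted p 0.144) and 0.24 ± 0.068 for iTBS against cTBS (edgeR adjusted p 0.0838). Vipr1, a receptor for the vasoactive intestinal peptide, had -0.29 ± 0.097 for cTBS against sham (edgeR adjusted p 0.144). Npy2r of the same list was higher there, at 0.64 ± 0.29 (edgeR adjusted p 0.1925). Of the 13 genes, 9 were above and 4 below a fold change of 1 for cTBS against sham, where 46.5% of all genes were above. At an unadjusted p under 0.05 by edgeR, 1 was higher and 2 were lower, where 6.8% and 17.6% of all genes were. For iTBS against sham, 6 were above and 7 below, with 1 higher and 1 lower at that level.

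Many of the markers varied together, or in opposition, across animals of the same group. Deviations of log2 CPM from group means were compared over the 15 libraries for all 45 pairs of markers. Pearson's r ranged between -0.91 and 0.97, with 16 pairs above 0.5 and 10 below -0.5. By permutation within groups, 18 pairs had an adjusted p under 0.05 for r and 14 for Spearman's rho. The share of all gene pairs with such values was not computed, so these counts cannot show whether the markers differ from other genes. Npy and Lamp5 were the closest pair (r = 0.97, rho = 0.95, both with the smallest permutation p possible, 1e-05, adjusted 0.00045, and r = 0.95 without the 2 most extreme libraries). Npy and Sst followed each other as well (r = 0.87, permutation p 0.00047, adjusted 0.00315; rho = 0.79, p 0.00355, adjusted 0.0177; r = 0.84 without 2 libraries). Adarb2 ran against Lamp5 (r = -0.91, permutation p 9e-05, adjusted 0.0015; rho = -0.89, p 0.00028, adjusted 0.0042; r = -0.86 without 2 libraries). Vip and Adarb2, which mark overlapping cells, also ran in opposite directions (r = -0.84, permutation p 0.00049, adjusted 0.00315; rho = -0.83, p 0.00112, adjusted 0.0084; r = -0.83 without 2 libraries). Sst and Lhx6, markers of the same lineage, had r = 0.67 (permutation p 0.0136, adjusted 0.0383; rho = 0.76, p 0.00573, adjusted 0.0234; r = 0.61 without 2 libraries). Pvalb, a marker of that lineage too, had r = 0.06 with Lhx6 (permutation p 0.841, adjusted 0.901) and r = 0.42 with Sst (permutation p 0.168, adjusted 0.261).

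**Figure D4:**
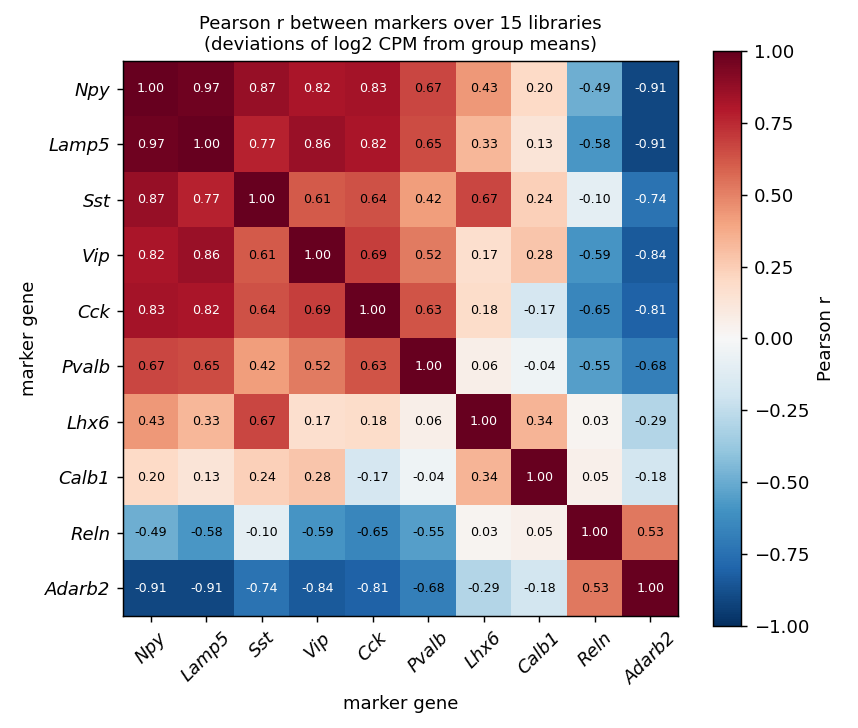
Pearson's r between each pair of markers (rows and columns) over deviations of log2 CPM from group means in 15 libraries, red for positive and blue for negative. Npy, Lamp5, Sst, Vip and Cck form a positive block, and Adarb2 is negative with each of them, down to -0.91.

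The same deviations were set against 8 measured properties of the libraries, 80 relations in all, of which 13 had an adjusted p under 0.05 for r and 12 for rho. The level of excitatory neuron genes was related to 6 markers. How many of all genes were related as strongly to these properties was not computed, so the counts are not particular to the markers. Npy was higher where that level was higher (r = 0.92, smallest permutation p possible 1e-05, adjusted 0.0004; rho = 0.92, p 2e-05, adjusted 0.0008; r = 0.93 without the 2 most extreme libraries). Adarb2 was lower there (r = -0.87, permutation p 0.00027, adjusted 0.00496; rho = -0.85, p 0.00042, adjusted 0.0084; r = -0.81 without 2 libraries). Nuclear RNA ran the other way, with r = -0.79 for Npy (permutation p 0.00212, adjusted 0.017; rho = -0.76, p 0.00369, adjusted 0.0358; r = -0.61 without 2 libraries) and r = 0.74 for Adarb2 (permutation p 0.00709, adjusted 0.0436; rho = 0.74, p 0.00651, adjusted 0.0442; r = 0.62 without 2 libraries). Reln was higher where striatal genes were higher (r = 0.76, permutation p 0.00207, adjusted 0.017; rho = 0.76, p 0.00115, adjusted 0.0184; r = 0.68 without 2 libraries), and Cck was lower there (r = -0.83, permutation p 0.00237, adjusted 0.0172; rho = -0.79, p 0.00447, adjusted 0.0358; r = -0.74 without 2 libraries). All of these levels come from the same libraries and share their scaling. With nuclear RNA as a covariate, Adarb2 was at 0.031 and Npy at -0.21 for cTBS against sham, so that their signs differed from those above, with no adjusted p under 0.05.

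**Figure D5:**
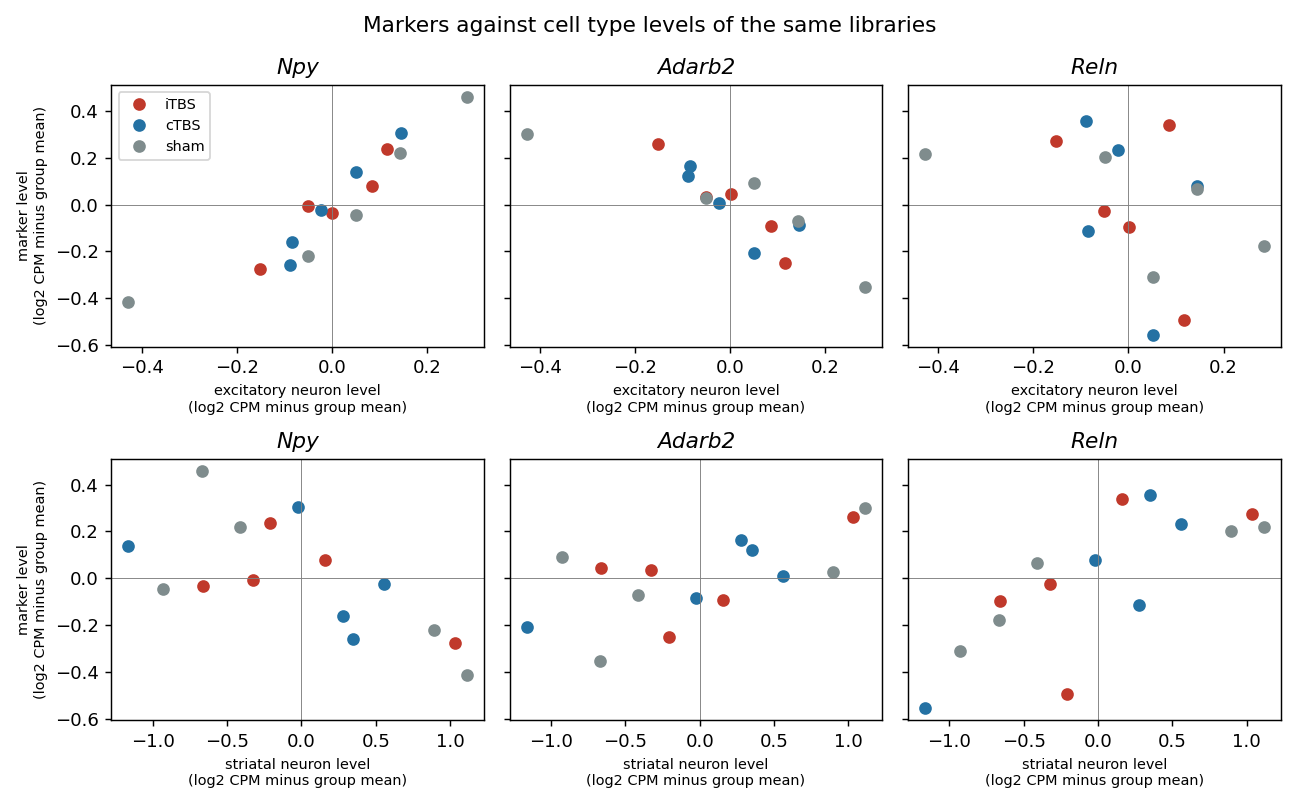
Deviation of Npy, Adarb2 and Reln from the group mean (vertical axis, log2 CPM) against that of the excitatory neuron level (top) and the striatal neuron level (bottom) in 15 libraries, coloured by group. Npy climbs with the excitatory level (r = 0.92), Adarb2 descends (r = -0.87), and Reln climbs with the striatal level (r = 0.76).

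The genes whose levels followed each marker most closely were ranked by Pearson's r over the same deviations, among 16668 genes with a mean of at least 1 CPM, as a description. Sema3a (r = 0.96), Cx3cl1 (0.95) and Elavl3 (0.94) were closest to Sst. Igfbp6 (0.98), Pip5k1c (0.97) and Glt8d2 (0.97) were closest to Npy, and Pip5k1c (0.98), Npy (0.97) and Gm11549 (0.97) to Lamp5. Clec2l (0.94), Gm8730 (0.92) and Lysmd2 (0.91) were closest to Pvalb, and Rbms2 (0.93), Zbtb8b (0.92) and Ssu72 (0.92) to Vip. Tmem178 (0.99), Epop (0.98) and BC029722 (0.97) were closest to Cck, and Akap9, Lrrk2 and Igf2r (0.94 each) to Reln. U2af2 (0.91), Pelp1 (0.91) and Crtac1 (0.89) were closest to Lhx6, and Zfp966 (0.95), Traip (0.94) and Gm10421 (0.94) to Adarb2. Cops2, Actr2 and Gpbp1 (0.98 each) were closest to Calb1.

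Levels of different genes were compared per kilobase of exon (CPM per kb). Cck had the highest mean over the 15 libraries, 153.0, followed by Npy at 131.8, Sst at 120.5 and Lamp5 at 82.0. The ranges of neighbours among these overlapped, so their order was not beyond the spread between libraries. Pvalb followed at 42.6, with a range of 34.0 to 56.8 that met neither neighbour. Calb1 at 27.8 and Vip at 19.5 overlapped. Reln stood apart at 9.76, while Lhx6 at 4.93 and Adarb2 at 3.79 overlapped. Reln and Adarb2 span the longest stretches of genome among the markers, 460.2 kb and 565.9 kb in GRCm38, and Sst the shortest, 1.4 kb. Within groups, Cck varied most (SD of 0.47 log2 units) and Reln next (0.31).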

How the data were processed

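Total RNA of mouse cortex was sequenced from 15 animals, 5 per group, with a stranded kit that removes ribosomal RNA, per the labels' protocols. The authors deposited raw counts per Ensembl gene and a table of log2-scale variance-stabilised values. The submitters' processing notes name fastp, STAR, DESeq2 and the build GRCm39 (mm39), and the sources used here do not give versions, counter, annotation or strand setting. Counts were tested as deposited with edgeR 4.0.16 (filterByExpr, TMM, quasi-likelihood F test, 1 term per group, Benjamini-Hochberg over 22998 genes, threshold 0.05) in R 4.3.3, after a check on simulated data. The deposited log2 values entered limma 3.58.1, and DESeq2 1.42.0 was another alternative. Intervals cover 95% and log2 CPM used a prior count of 0.5. The tested genes held 99.89% of counts. All symbols were matched, and 147 of 150 list genes were tested.

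The members and lists were chosen with earlier results of these data known. All members were named, with up to 3 genes of each of 8 interneuron lists by smallest p and at least 1 CPM, Gad1, Gad2 and Slc32a1, and the 3 genes most like each member. Chodl, Krt73, Sncg, Nkx2-1 and Prox1 fell outside that rule and are named as parts of list counts. All of these except Prox1 had a mean under 1 CPM. Of the medial lineage list, 1 gene is not reported here, and its count and median leave that gene out. Library measures were the 8 set down with the design, which foresaw no p-values for them. The permutation p-values (100000 resamples within groups) were added after the correlations had been seen. Motifs and promoters were chosen after values were seen. Names, exon lengths and overlaps come from GENCODE M21 and promoters from RefSeq, both on GRCm38, not the authors' build. The labels give 5 animals per group and nothing on litters or cages.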

Additional observations from a re-analysis of the deposited data

How the results depend on the processing

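Across 27 alternatives per comparison, 0 markers passed for iTBS against sham in each. For cTBS against sham the count was 0 to 1 when 1 library was left out. For iTBS against cTBS it was 0 to 1 when 1 library was left out, 1 with DESeq2 and 2 with the excitatory neuron level as a covariate, which was added after the data were seen. Nothing in the labels says that the replicate numbers shared between groups pair animals. Libraries of the same number had r of deviations of -0.678 to 0.795 (15 pairs, 8 over 0.1), which cannot show whether animals were paired. With the replicate block the count of markers was 0 in each comparison. Over all genes, edgeR called 0 in each comparison, against 5 with the block, 5338 with the excitatory covariate and 2618 with DESeq2 for iTBS against cTBS, and 132 with DESeq2 for cTBS against sham. Leaving out 1 library gave up to 5726 for cTBS against sham (without sham 4), and 4474 without iTBS 1, 3380 without cTBS 5 and 3637 without sham 4 for iTBS against cTBS. Of 810 marker fold changes under alternatives, 116 changed sign, of which 102 moved by less than 1 SE and passed in neither fit, and the cause was not tested. With the setting "striatal level as covariate", the opposite sign was given by Sst 0.014, Npy 0.091 and Cck 0.166 for iTBS against sham, by Reln -0.264 and Cck 0.357 for cTBS against sham and by Pvalb -0.059, Lamp5 -0.050, Reln 0.140 and Cck -0.192 for iTBS against cTBS. With the setting "library number as covariate", the opposite sign was given by Sst 0.038, Npy 0.060, Reln 0.012 and Lhx6 0.035 for iTBS against sham and by Reln 0.001 for iTBS against cTBS. With the setting "limma-trend on deposited VST values", the opposite sign was given by Npy 0.002 for iTBS against sham and by Pvalb -0.011, Cck -0.017 and Adarb2 -0.010 for iTBS against cTBS. With the setting "replicate block", the opposite sign was given by Npy 0.003 for iTBS against sham, by Reln -0.005 for cTBS against sham and by Reln 0.003 for iTBS against cTBS. With the setting "nuclear RNA level as covariate", the opposite sign was given by Npy 0.017 and Lhx6 0.001 for iTBS against sham, by Pvalb -0.153, Sst -0.060, Vip -0.160, Npy -0.214, Lamp5 -0.158 and Adarb2 0.031 for cTBS against sham and by Sst 0.047, Vip 0.042, Npy 0.230 and Adarb2 -0.195 for iTBS against cTBS. With the setting "RLE size factors in edgeR", the opposite sign was given by Reln 0.001 for iTBS against sham and by Cck -0.006 for iTBS against cTBS. With the setting "library totals alone", the opposite sign was given by Reln 0.001 for iTBS against sham, by Vip -0.011 and Reln -0.032 for cTBS against sham and by Reln 0.032 for iTBS against cTBS. With the setting "DESeq2", the opposite sign was given by Reln 0.001 for iTBS against sham and by Cck -0.006 for iTBS against cTBS. With the setting "only the 2 groups compared", the opposite sign was given by Reln 0.004 for iTBS against sham. With the setting "without sham 2, sham 5 and cTBS 4", the opposite sign was given by Reln 0.103 and Calb1 0.002 for iTBS against sham, by Vip -0.092, Npy -0.022 and Lamp5 -0.022 for cTBS against sham and by Pvalb -0.013, Cck -0.024 and Adarb2 -0.034 for iTBS against cTBS. With the setting "excitatory neuron level as covariate", the opposite sign was given by Reln 0.039 for iTBS against sham and by Pvalb -0.010, Lamp5 -0.023, Reln 0.037 and Cck -0.129 for iTBS against cTBS. With the setting "no expression filter", the opposite sign was given by Pvalb -0.025, Lamp5 -0.011, Cck -0.035 and Adarb2 -0.025 for iTBS against cTBS. Leaving out 1 library at a time gave sign changes with these ranges of log2 fold change: Pvalb -0.006 to 0.257, Sst -0.114 to 0.053, Npy -0.114 to 0.126, Reln -0.098 to 0.104, Cck -0.258 to 0.077, Lhx6 -0.065 to 0.064, Calb1 -0.064 to 0.040 for iTBS against sham. The ranges were Vip -0.052 to 0.138, Npy -0.023 to 0.250, Lamp5 -0.008 to 0.215, Reln -0.084 to 0.166, Cck -0.280 to 0.055 for cTBS against sham. The ranges were Pvalb -0.066 to 0.107, Lamp5 -0.045 to 0.114, Reln -0.162 to 0.083, Cck -0.165 to 0.156, Adarb2 -0.052 to 0.076 for iTBS against cTBS. Depth was not limiting for detection, since the lowest count of any marker in any library was 290 (Lhx6), and the intervals set the size of difference that could be seen.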

Other observations

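Some genes of the class lists had wider differences than the class markers, and 0 of them passed the adjusted threshold in edgeR's test. Calb2 had 4.72, 4.88, 4.11, 4.48 and 6.48 CPM in iTBS cortex, 7.76, 15.02, 6.98, 8.09 and 7.11 CPM in cTBS cortex, and 6.08, 25.7, 4.42, 7.72 and 8.09 CPM in sham cortex. The Vip class list, which holds Calb2, had 4 genes above and 3 below a fold change of 1 for iTBS against sham (median 0.020), with 2 lower at an unadjusted p under 0.05 by edgeR where 0.974% of all genes were, and 2 above and 5 below for iTBS against cTBS (median -0.249). Calb2 encodes calretinin, a calcium buffer of Vip cells that is also made in parts of the thalamus. Sham 2, which was highest for Calb2, also had the highest mean level of 6 thalamic genes, 4.41 log2 CPM, where the other sham libraries had 2.78 to 2.93, and its part in the Calb2 values was not tested. The log2 fold change of Calb2 was -1.07 ± 0.38 for iTBS against sham (edgeR adjusted p 1) and -0.86 ± 0.38 for iTBS against cTBS (edgeR adjusted p 0.139), where the groups did not overlap. Such a separation, in the lower direction, was found for 1.7% of all genes. Tac1 had 17.2, 30.8, 13.8, 10.1 and 18.2 CPM in iTBS cortex, 33.5, 46.1, 13.4, 24.9 and 30.4 CPM in cTBS cortex, and 24.0, 28.3, 8.79, 10.2 and 11.4 CPM in sham cortex. Tac1 encodes substance P and is made by striatal projection neurons as well as by parvalbumin cells. The parvalbumin class list, which holds Tac1, had 5 genes above and 6 below a fold change of 1 for cTBS against sham (median -0.050). The log2 fold change of Tac1 was 0.84 ± 0.36 for cTBS against sham (edgeR adjusted p 0.177), with overlapping groups.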
